A study of Mus musculus with 12 samples.

Results

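The genes described here are 25 protein-coding mouse genes whose messenger RNA peaked in CD8+ T cells that had met antigen without added costimulation. They were chosen from the gene counts themselves. A gene was kept when its mean level after antigen alone was at least 4 times its mean in naive cells, at least 4 times its mean after antigen with costimulation, and at least 10 counts per 1000000 (CPM, a gene's count scaled to the total of its library). Of 55536 annotated genes, 39 met these limits, and 28 of those were protein coding. Izumo1r, Nrgn and Nrn1 were among those 28 but were set aside by name, which left the 25. Immunoglobulin and hemoglobin genes were to be set aside as well, but none of them was among the 28. Because the limits used both contrasts with antigen alone, the peak itself is described here with no test, and only the comparison between antigen with costimulation and naive cells is tested.

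The cells carried the OT-I transgene, a T cell receptor that recognizes the SIINFEKL peptide of ovalbumin. In the Ag group (n = 5 libraries) OT-I cells had been transferred into C57BL/6J mice that then received the peptide with control rat IgG. In the Ag+Costim group (n = 5) the same transfer and peptide were given with agonist antibodies against CD134 (OX40) and CD137 (4-1BB), 2 receptors of the tumor necrosis factor receptor superfamily. CD8+ T cells were sorted from spleen and lymph nodes after 4 days by the sample labels, and the study's methods give a slightly shorter time. The sort was for CD8, the donor marker CD45.1 and the Vα2 and Vβ5 chains of the transgenic receptor. In the Naive group (n = 2) the cells came from OT-I mice without transfer, peptide or antibody, so that Naive cells differ from the others in host as well as in stimulation. The OT-I mice of the study's methods lack Rag1 or Rag2, and with either loss no B cells mature, whereas the recipients keep their own B cells and other leukocytes. The methods give the age of the mice as 1 range for the whole study and not by group. Nothing in the labels says whether libraries of a group came from separate animals, while the study's figure legends speak of biological replicates. The p-values measure the spread between these libraries.

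A CD8+ T cell that binds antigen signals through the T cell receptor to calcium, the mitogen-activated protein (MAP) kinases and NF-kB. Costimulatory receptors add to those signals. T cells that meet antigen without strong costimulation typically divide briefly and are then deleted or become hyporesponsive, and such cells are known to express brakes on receptor signalling and surface molecules that damp immune responses. The 25 genes encode proteins of several kinds. Xcl1, Ccl4, Spp1, Angptl2 and Igfbp7 encode secreted proteins. Cd200, Ptger2, Ccr10, Nt5e and Gpm6b encode surface molecules, and Slc9b2 and Gm14085 transporters. Dusp2, Spry1 and Dapk3 encode signalling enzymes or inhibitors. Cotl1, Synpo, Myl12b, Snx20 and Capn3 encode proteins of the cytoskeleton, of vesicle sorting or of proteolysis. Crls1, Dcxr, Armc3, Ccdc28b and Ccdc141 belong to none of these groups.

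The 12 libraries held 24006053 to 49294934 estimated counts, and Ag 4 was the shallowest. All 12 genes of a fixed list of CD8 T cell markers were present, with summed levels of 19800 to 20600 CPM in Naive, 17500 to 21700 CPM in Ag and 9750 to 12700 CPM in Ag+Costim. Markers of other cells moved between the groups too. The summed level of 12 B cell markers was 66.3 to 107 CPM in Naive, 410 to 726 CPM in Ag and 218 to 355 CPM in Ag+Costim, and of the defining markers Cd79a averaged 1.03, 26.6 and 9.13 CPM. The 9 genes found of an erythroid list summed to 172 to 2330, 600 to 6760 and 21.5 to 235 CPM, and 14 myeloid markers to 283 to 500, 613 to 1020 and 483 to 931 CPM, in the same order. The 6 platelet markers summed to 1.65 to 2.14, 1.93 to 17.4 and 0.417 to 2.23 CPM. None of the 25 genes is on a marker list. The 7 NK cell markers summed to 1170 to 1460, 2390 to 3170 and 1410 to 2210 CPM, most of it Nkg7, which CD8 T cells also express, at a mean of 1270, 2790 and 1650 CPM. Klrb1c, the NK1.1 antigen, averaged 12, 8.91 and 1.06 CPM and Klre1 10.3, 5.75 and 10.5 CPM, neither of them highest in Ag. Eomes was highest in Ag+Costim, at 18.7, 30.7 and 95.9 CPM. Ncr1 (2.13, 2.79 and 1.28 CPM), Klra4 (1.11, 1.32 and 0.124 CPM) and Klra8 (1.06, 1.29 and 0.134 CPM) were highest in Ag. Ly6c2, which activated CD8 T cells also express, made up much of the myeloid sum, at a mean of 203, 498 and 474 CPM. Of the other myeloid markers, Lyz2 (28.5, 80.3 and 56.2 CPM), Cst3 (95.9, 182 and 111 CPM), C1qc, Cd14 and Fcgr3 were also highest in Ag. C1qa, C1qb, Adgre1, Csf1r and Itgam were highest in Ag+Costim, and S100a8, S100a9 and Mpo in Naive. The B cell and NK cell sums of every Ag library were above those of all other libraries, and the erythroid sums above those of Ag+Costim. The part of any of these markers in the results below was not tested. In bulk samples, fewer cells of a type and less RNA per cell cannot be told apart.

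The peak was wide for nearly all of the genes. In 23 of the 25, the lowest of the 5 Ag libraries lay above every Naive and every Ag+Costim library, the exceptions being Igfbp7 and the Myl12b gene model described below. Of 18817 genes tested, 7.96% showed that separation, and the rule itself favoured it. The mean Ag level ranged from 11.9 CPM for Gpm6b and Igfbp7 to 661 CPM for Cotl1. Ag exceeded Ag+Costim from 4.10-fold for Xcl1 to 45.2-fold for Spp1. Among the 21 genes with any Naive count, Ag exceeded Naive from 4.39-fold for Snx20 to 130-fold for Igfbp7. Spp1, Slc9b2, Spry1 and the Myl12b model had no count in either Naive library.

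**Figure D1:**
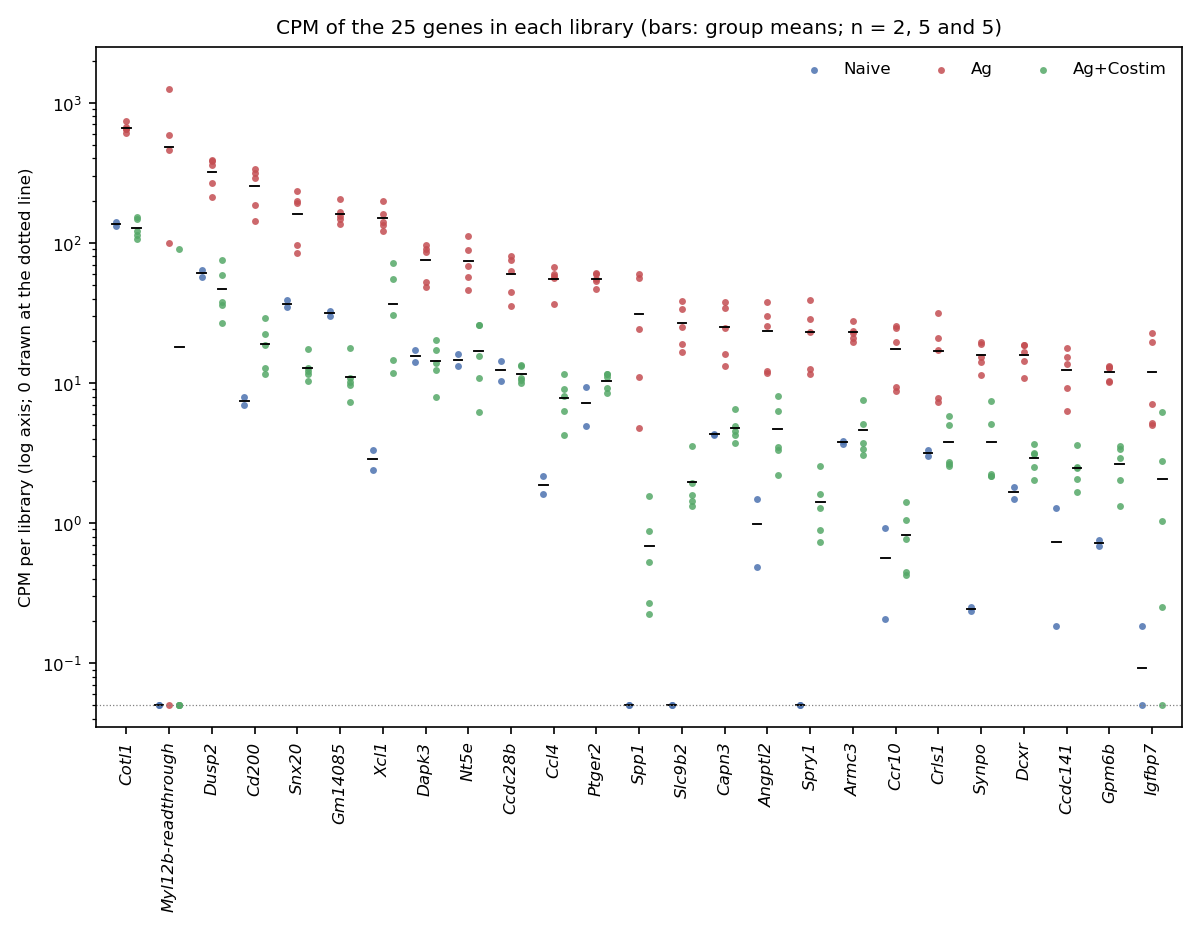
Level of each of the 25 genes in each library, as CPM on a log axis. Each point is 1 library (blue Naive, red Ag, green Ag+Costim), black bars are group means, and a value of 0 is drawn on the dotted line. The 5 red points lie above all blue and green points in 23 genes, and Myl12b-readthrough and Igfbp7 are the exceptions.

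The genes nearest to the limits show how far the choice depends on them. Just inside lay Xcl1 at 4.10 times and Synpo at 4.17 times its Ag+Costim mean, and Snx20 at 4.39 times its Naive mean. Just outside lay Ppic at 3.97 times its Naive mean, and Ms4a4c at 3.96 times and Sdcbp2 at 3.86 times their Ag+Costim means.

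Among the secreted proteins, Xcl1 encodes lymphotactin, the chemokine that attracts dendritic cells bearing XCR1. Xcl1 (ENSMUSG00000026573.7, chr1:164931644-164935527 of mm10) was measured at 200, 133, 160, 121 and 140 CPM in Ag 1 to 5. It stood at 71.8, 55.4, 30.5, 14.5 and 11.8 CPM in Ag+Costim 1 to 5 and at 3.33 and 2.41 CPM in Naive. The 3 groups did not overlap, and Ag+Costim lay between the other two. Ccl4, the inflammatory chemokine MIP-1β, had 59.9, 56.4, 57.8, 36.6 and 66.7 CPM in Ag. It had 11.6, 8.01, 6.27, 9.03 and 4.25 CPM in Ag+Costim and 1.61 and 2.15 CPM in Naive, again with no overlap.

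Spp1 encodes osteopontin, a secreted phosphoprotein of bone, macrophages and activated T cells. Spp1 (ENSMUSG00000029304.14, chr5:104435118-104441050) was very uneven within Ag, at 59.8, 56.1, 4.73, 11 and 24.1 CPM. It had 1.55, 0.871, 0.223, 0.268 and 0.525 CPM in Ag+Costim and no count in Naive, where 3 counts would be 0.069 and 0.0709 CPM. Ag 1 and Ag 2 held most of the Spp1 signal. Igfbp7, an insulin-like growth factor binding protein found in stroma and vessel walls, was at 19.6, 22.7, 4.97, 7.08 and 5.2 CPM in Ag. It was at 6.21, 2.78, 1.03, 0 and 0.25 CPM in Ag+Costim and at 0.184 and 0 CPM in Naive, so that Ag+Costim 1 lay above Ag 3 and Ag 5. Angptl2, a secreted angiopoietin-like protein, had 11.7 to 37.9 CPM in Ag (median 25.4), 2.21 to 8.11 CPM in Ag+Costim (median 3.47) and 0.483 and 1.49 CPM in Naive.

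Of the surface molecules, Cd200 encodes the ligand of the inhibitory receptor CD200R of myeloid cells. Cd200 (ENSMUSG00000022661.14, chr16:45382135-45409053) had 313, 336, 185, 143 and 291 CPM in Ag. It had 29.3, 22.5, 12.8, 18.6 and 11.5 CPM in Ag+Costim and 7.01 and 7.91 CPM in Naive. Even the lowest Ag library, Ag 4, was well above the highest Ag+Costim library, and no Ag+Costim library reached down to Naive. B cells, which the sort would remove, also express Cd200.

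Ptger2 encodes EP2, a receptor of prostaglandin E2 that raises cyclic AMP and damps T cell responses. It was the second most even of the genes after Cotl1, with 46.8 to 61.2 CPM in Ag (median 55.2), 8.54 to 11.5 CPM in Ag+Costim (median 11.1) and 4.89 and 9.4 CPM in Naive, and Naive overlapped Ag+Costim. The noncoding genes Gm49364 and Gm17173 overlap Ptger2 on the other strand, and both met the 3 limits as well. Whether the counting used strand is not given in the sources used here, so that reads of these genes and of Ptger2 cannot be told apart. Nt5e encodes CD73, the enzyme that makes extracellular adenosine, and stood at 46 to 111 CPM in Ag (median 68.9), at 6.2 to 26 CPM in Ag+Costim (median 15.6) and at 13.2 and 16 CPM in Naive. Ccr10, the receptor of the skin and mucosal chemokines CCL27 and CCL28, had 25.6, 24.5, 19.7, 8.75 and 9.42 CPM in Ag but at most 1.41 CPM in any other library. Gpm6b, a membrane protein of the proteolipid family, was even at 10.2 to 13.2 CPM in Ag, against 1.32 to 3.57 CPM in Ag+Costim and 0.69 and 0.756 CPM in Naive.

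The transporters behaved differently from each other. Slc9b2 encodes the sodium-proton exchanger NHA2. Slc9b2 (ENSMUSG00000037994.14, chr3:135307700-135345387) had 33.7, 38.4, 19.1, 16.5 and 25.1 CPM in Ag, 3.55, 1.93, 1.44, 1.59 and 1.32 CPM in Ag+Costim, and no count in Naive. Gm14085 is a gene of the concentrative nucleoside transporter family, next to its relative Slc28a2 on chromosome 2. Gm14085 (ENSMUSG00000079071.2, chr2:122484941-122528040) had 155, 166, 136, 147 and 205 CPM in Ag and 10.8, 7.25, 10.1, 17.7 and 9.69 CPM in Ag+Costim. Its Naive libraries, at 30.2 and 32.6 CPM, lay between the other groups, so that Ag+Costim was the lowest of the 3.

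Gm14085 and Slc28a2 lie 23803 bases apart on the same strand, and their coding sequences are close enough to bear on how reads were divided between them. The coding sequences of Gm14085-201 and Slc28a2-201, both of 1983 bases, were identical in 94.8% of 1993 aligned columns. The longest identical run was 192 bases, and 3 such runs reached 100 bases, the length of the reads. The window of 60 bases with the most differences, positions 863 to 922 of both coding sequences, is shown from the transcripts of the GENCODE vM21 annotation, with the 12 differing bases in capitals.
Gm14085: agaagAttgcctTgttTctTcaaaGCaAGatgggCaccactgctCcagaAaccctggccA
Slc28a2: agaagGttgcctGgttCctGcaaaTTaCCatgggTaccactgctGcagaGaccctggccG
Slc28a2 itself had 186 ± 23.5 CPM in Ag (SD, n = 5), 72.5 ± 20.2 CPM in Ag+Costim (SD, n = 5) and 90.8 ± 3.70 CPM in Naive (SD, n = 2). Its levels followed the same order of groups as those of Gm14085 but fell short of the 4-fold limits. How much of either count came from the other gene was not tested.

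Among the genes of signalling, Dusp2 encodes PAC-1, a nuclear phosphatase that inactivates MAP kinases. Dusp2 (ENSMUSG00000027368.6, chr2:127336159-127338376) had 357, 382, 268, 214 and 389 CPM in Ag, 75.3, 59.2, 36.2, 26.6 and 37.8 CPM in Ag+Costim and 57.1 and 64 CPM in Naive. The Naive values lay inside the Ag+Costim range. Spry1 encodes Sprouty 1, an inhibitor of the Ras and MAP kinase pathway, and had 28.4, 39.2, 12.6, 11.6 and 23.2 CPM in Ag, against 0.737 to 2.55 CPM in Ag+Costim (median 1.27) and no count in Naive. Dapk3 encodes a kinase of the death-associated family that phosphorylates myosin light chain. It stood at 48.2 to 97.1 CPM in Ag (median 86.3), 7.89 to 20.3 CPM in Ag+Costim (median 13.9) and 14.1 and 17.2 CPM in Naive.

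Of the cytoskeletal genes, Cotl1 encodes coactosin-like protein, which binds filamentous actin and 5-lipoxygenase. Cotl1 (ENSMUSG00000031827.13, chr8:119809222-119840544) was the most abundant and the most even of the 25 genes, with 650, 737, 667, 608 and 646 CPM in Ag. It had 121, 152, 114, 148 and 106 CPM in Ag+Costim and 142 and 131 CPM in Naive, so that Ag+Costim and Naive overlapped. On the FPKM scale, which divides by transcript length as well as by depth and on which levels of different genes can be compared, Cotl1 also led in Ag with 411 ± 29.9 FPKM (SD, n = 5). Xcl1 followed with 286 ± 59.2 FPKM, Cd200 with 222 ± 69.6 FPKM and Dusp2 with 203 ± 48.2 FPKM, and the spreads of these last 3 levels overlapped. Synpo encodes synaptopodin, an actin-binding protein known from podocytes and dendritic spines. It had 19, 19.6, 11.4, 15.4 and 14.1 CPM in Ag, 7.42, 5.1, 2.17, 2.15 and 2.22 CPM in Ag+Costim and 0.253 and 0.236 CPM in Naive, with no overlap.

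Snx20 encodes a sorting nexin that binds the selectin ligand PSGL-1. Snx20 (ENSMUSG00000031662.8, chr8:88626563-88636128) had 194, 233, 97.2, 85.2 and 199 CPM in Ag. Its Ag+Costim libraries had 17.5, 12.7, 10.3, 11.6 and 12.2 CPM, below both Naive libraries at 38.8 and 34.8 CPM. Capn3, a calcium-dependent protease known from muscle, stood at 13.2 to 37.8 CPM in Ag (median 24.8), 3.7 to 6.52 CPM in Ag+Costim (median 4.53) and 4.27 and 4.32 CPM in Naive.

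The Myl12b entry needs a reading of its own. GENCODE vM21 gives the name Myl12b, a regulatory light chain of nonmuscle myosin, to 2 gene models. The one chosen (ENSMUSG00000117098.1, chr17:70974119-71002208, minus strand) spans both the other Myl12b model (70973133 to 70990890) and its neighbour Myl12a (70993656 to 71002878), and is called the readthrough model here. All of its 1201 exon bases (100%) lie in exons of the other models. Its counts were 1260, 99.5, 593, 0 and 459 CPM in Ag, 90 CPM in Ag+Costim 1, and 0 in the other 4 Ag+Costim and both Naive libraries. Ag 1, with the most readthrough counts, had 422 CPM for the other Myl12b model, against 1040 to 1370 CPM in the other Ag libraries. Summed over the 3 models, the locus had 2220 ± 292 CPM in Ag (SD, n = 5), 1480 ± 206 CPM in Ag+Costim (SD, n = 5) and 1500 ± 66.2 CPM in Naive (SD, n = 2). The sum is highest in Ag but far below the 4-fold limits, and the readthrough model meets them through the share of the locus that was assigned to it.

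**Figure D2:**
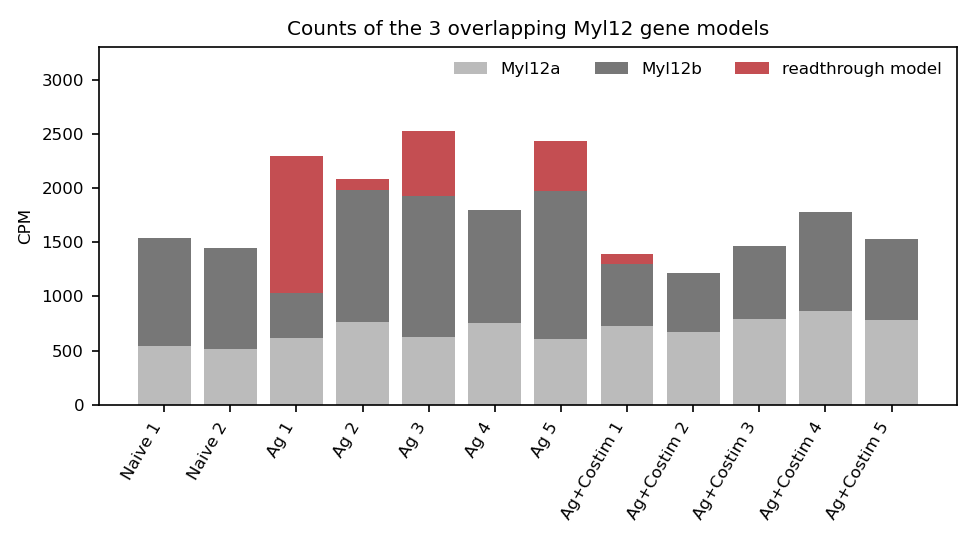
Stacked CPM of the 3 overlapping Myl12 gene models in each of the 12 libraries: Myl12a in light grey, Myl12b in dark grey and the readthrough model in red. The red part is 1260 CPM in Ag 1 and 0 in Ag 4, while the height of the whole bar is 1790 to 2520 CPM over the Ag libraries.

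The remaining genes were lower. Ccdc28b, linked to cilia and Bardet-Biedl syndrome, stood at 35.4 to 80.4 CPM in Ag (median 62.5), 10 to 13.4 CPM in Ag+Costim and 10.4 and 14.3 CPM in Naive. Armc3, an armadillo-repeat protein known mainly from testis, was even at 19.7 to 27.9 CPM in Ag, against 3.08 to 7.6 CPM in Ag+Costim and 3.66 and 3.87 CPM in Naive. Crls1 encodes the mitochondrial cardiolipin synthase and had 20.8, 31.5, 7.27, 7.79 and 17.1 CPM in Ag, against 2.57 to 5.84 CPM in Ag+Costim and 3 and 3.33 CPM in Naive. Dcxr, a dicarbonyl and L-xylulose reductase, had 10.9 to 18.7 CPM in Ag, against 2.04 to 3.66 CPM in Ag+Costim and 1.49 and 1.82 CPM in Naive. Ccdc141, a coiled-coil protein linked to centrosomes and neuronal migration, had 6.28 to 17.7 CPM in Ag, against 1.66 to 3.62 CPM in Ag+Costim and 0.184 and 1.28 CPM in Naive.

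Costimulated and naive cells differed in about as large a share of these genes as of all genes tested. By edgeR's quasi-likelihood test with Benjamini-Hochberg adjustment over 18817 genes, Ag+Costim was higher than Naive for 12 of the 25 genes and lower for 2. Over all genes tested, 26.9% were called higher and 25.4% lower, 52.3% in all, which is the background against which 12 and 2 of 25 are to be read. All 25 genes passed the filter on low counts, the low ones through their Ag libraries, and 24 of them passed it with Ag+Costim and Naive alone. The median log2 fold change of the 25 was 1.03, also with genes absent from Naive set to their lower bounds, against -0.02 over all genes. The limits of the choice cap both groups at a fraction of Ag and leave the direction between them open.

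Among the secreted proteins, 4 of 5 were called higher in Ag+Costim than in Naive, against 26.9% of all genes tested. With 5 genes, no trait of secreted proteins is read from this. On the log2 scale Xcl1 rose by 3.89 (SE 0.73, edgeR's adjusted p = 7.56e-04), Angptl2 by 2.47 (SE 0.66, edgeR's adjusted p = 0.00672) and Ccl4 by 2.28 (SE 0.37, edgeR's adjusted p = 1.91e-04). Spp1 was called too (edgeR's adjusted p = 0.0345) and was at least 9.84-fold higher, with Naive set at a floor of 3 counts per library. Igfbp7, with a log2 value of 4.63 (SE 1.93, edgeR's adjusted p = 0.0634), was not called. Of 5 surface molecules, Cd200 at 1.56 (SE 0.40, edgeR's adjusted p = 0.00517), Gpm6b at 2.09 (SE 0.36) and Ptger2 at 0.76 (SE 0.22, edgeR's adjusted p = 0.0105) were called higher, while Ccr10 at 0.77 (SE 0.65) and Nt5e at 0.43 (SE 0.47) were not called.

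The 2 genes called lower were Snx20, at -1.30 (SE 0.32, edgeR's adjusted p = 0.0041), and Gm14085, at -1.28 (SE 0.24, edgeR's adjusted p = 6.64e-04). For these, costimulated cells held less than naive cells did. The other transporter, Slc9b2, was at least 28.1-fold higher in Ag+Costim over the same floor (edgeR's adjusted p = 1.60e-05). Of the signalling genes, Spry1 was at least 20.2-fold higher (edgeR's adjusted p = 1.81e-04), while Dusp2 at -0.15 (SE 0.33) and Dapk3 at 0.09 (SE 0.33) were not called. Synpo rose by 4.16 (SE 0.61, edgeR's adjusted p = 7.77e-05), Ccdc141 by 1.98 (SE 0.59) and Dcxr by 1.03 (SE 0.28). Cotl1 at 0.14 (SE 0.15), Ccdc28b at 0.14, Capn3 at 0.38, Crls1 at 0.46, Armc3 at 0.50 and the readthrough model were not called.

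**Figure D3:**
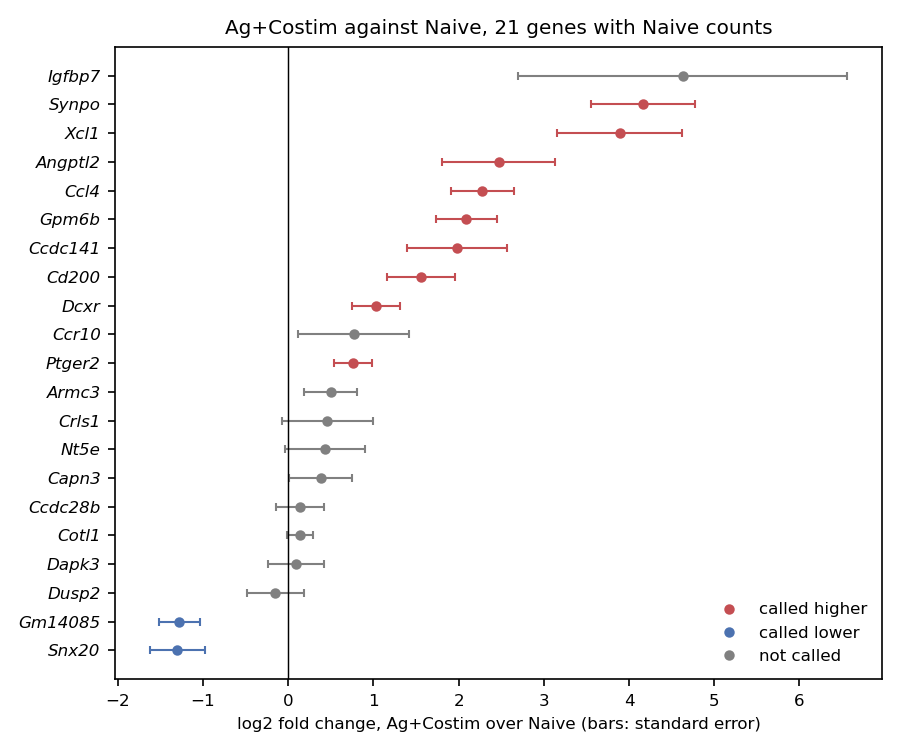
Log2 fold change of Ag+Costim (n = 5) over Naive (n = 2) with its standard error, for the 21 genes with counts in Naive, from edgeR's fit to all 12 libraries. Red marks genes called higher, blue genes called lower and grey genes not called. Synpo at 4.16 and Xcl1 at 3.89 are the highest called, and Snx20 at -1.30 and Gm14085 at -1.28 lie on the other side of 0.

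With 2 Naive libraries, several of these calls rest on 1 of them. Without Naive 1, 8 genes were called higher, and Cd200 (1.47), Angptl2 (1.87), Ccdc141 (1.16) and Spp1 were lost. Without Naive 2, 9 genes were called higher, and Ptger2 (0.35), Dcxr (0.88) and Spp1 were lost, with a median log2 fold change of 1.64 over the 25 genes. Spp1 was also lost without Ag+Costim 1 or 2, and Igfbp7 was called higher without Ag+Costim 4 (4.97) or 5 (4.91). Xcl1, Ccl4, Slc9b2, Spry1, Synpo, Gpm6b, Snx20 and Gm14085 were called in the same direction whichever library was left out.

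The 5 Ag libraries did not carry these genes evenly. The coefficient of variation over the Ag libraries had a median of 33.4% over the 25 genes, from 7.19% for Cotl1 to 103% for the readthrough model, against 13.6% over all tested genes with an Ag mean of at least 10 CPM. The unevenness had a common direction. Ag 1 and Ag 2 were both above Ag 3 and Ag 4 in 19 of the 25 genes, as in 20.4% of 8749 such genes, a grouping that was chosen after the values had been seen. The highest Ag library was Ag 2 in 13 genes (21.4% of the 8749), Ag 1 in 6 (12.8%) and Ag 5 in 6 (21%), and never Ag 3 (13.6%) or Ag 4 (31.2%). Ag 4 was the lowest in 13 genes (31% of the 8749) and Ag 3 in 10 (25.1%). Spp1, Igfbp7, Crls1, Spry1 and Angptl2 showed the widest spread in that direction, and Armc3, Gpm6b, Cotl1, Gm14085, Ptger2 and Xcl1 little of it.

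Depth and marker sums by library stood beside that spread as follows. Ag 4 had 24006053 counts, but Ag 3 had 45672104, close to the 45980125 of Ag 1 and the 44575437 of Ag 2. The erythroid sum was highest in Ag 4 at 6760 CPM and lowest in Ag 3 at 600 CPM. The platelet sum was 6.26 and 16.6 CPM in Ag 1 and Ag 2, and 1.93 and 17.4 CPM in Ag 3 and Ag 4. The B cell sum was 543 and 726 CPM in Ag 1 and Ag 2, and 410 and 620 CPM in Ag 3 and Ag 4. The sum of dendritic cell markers was 59.5 and 59.8 CPM in Ag 1 and Ag 2, and 83.5 to 97.9 CPM in the other 3. Most of it was Bst2 and Itgax, at means of 56.6 and 12.9 CPM in Ag. The myeloid sum was likewise 736 and 613 CPM in Ag 1 and Ag 2, and 828 to 1020 CPM in the other 3. Their part in the spread was not tested.

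**Figure D4:**
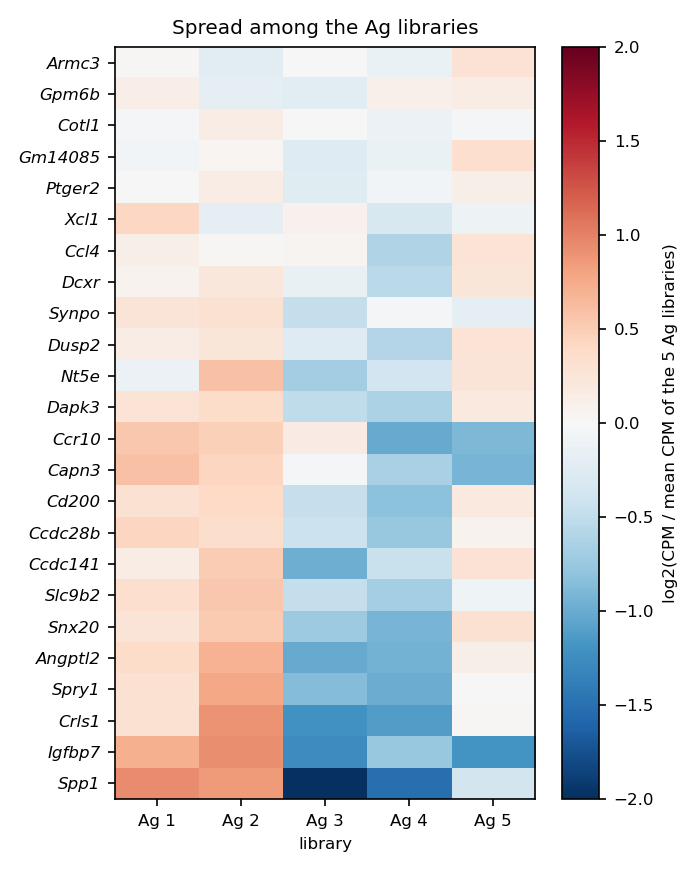
Level of 24 of the genes in each Ag library, as the log2 ratio of its CPM to the mean of the 5 Ag libraries (red above, blue below), with the readthrough model left out because of its 0 values. Genes are sorted by the difference between the mean of Ag 1 and Ag 2 and that of Ag 3 and Ag 4. Towards the bottom, Spp1 is red in Ag 1 and Ag 2 (59.8 and 56.1 CPM) and darkest blue in Ag 3 (4.73 CPM).

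A like unevenness was present at the lower levels of Ag+Costim. Ag+Costim 1 was the highest of its group in 18 of the 25 genes, against 23% of the 8749 genes, and Ag+Costim 4 in 6, against 32.1%. Ag+Costim 1 and 2 were both above the other 3 libraries in 13 genes, against 19.8%. Xcl1 at 71.8 and 55.4 CPM against 11.8 to 30.5 CPM, and Synpo at 7.42 and 5.1 CPM against 2.15 to 2.22 CPM, are examples.

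Where the counts fell along the transcripts was also described, since the transcript table splits each gene's counts. Such shares rest on the same contrast as the choice of genes and are given with no test. Snx20 has 2 transcripts, a protein-coding one and a longer one with a retained intron, which collects more counts per molecule because of its length. The retained-intron transcript held 53.1% ± 1.13 of the Snx20 counts in Naive (SD, n = 2), 14.9% ± 12 in Ag (SD, n = 5) and 31.6% ± 7.42 in Ag+Costim (SD, n = 5). A single Ag library reached 35.9%, inside the Ag+Costim range of 24.7% to 43.1%, and both Naive libraries lay above all others. For Ptger2, transcripts not annotated as protein coding held 26.8% ± 3.89 in Naive, 8.30% ± 2.71 in Ag and 11.7% ± 1.40 in Ag+Costim. For Cd200 the share was about level between Naive, at 19.6% ± 0.636, and Ag, at 22.6% ± 4.06, and lower in Ag+Costim at 10.4% ± 2.65, with no Ag+Costim library above 14%. For Dapk3, Ag overlapped both other groups, and for Ccdc28b all 3 overlapped.

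**Figure D5:**
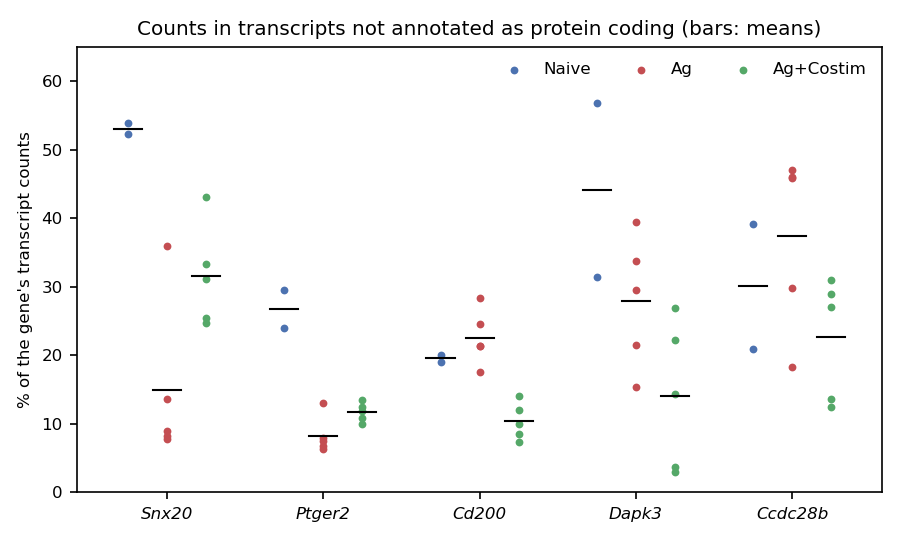
Percent of a gene's transcript counts that lie in transcripts not annotated as protein coding, for 5 genes chosen after their values had been seen. Each point is 1 library and black bars are group means (Naive n = 2, Ag n = 5, Ag+Costim n = 5). Snx20 is highest in Naive at 53.1% and Cd200 lowest in Ag+Costim at 10.4%, while the Ag points of Dapk3 and Ccdc28b overlap those of both other groups.

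The splicing table gives 1 percent-spliced-in value (Psi, the share of a node's reads in which it is included) for Ag and 1 for Ag+Costim, with no replicates. It lists 153 events in 21 of the genes. At Whippet's probability of more than 0.9 and with more than 0.05 between the 2 Psi values, 14 events passed, in Cotl1, Synpo and Gm14085. Of these, 11 are exons of the single gene Gm14085, and 3 of the 137 events of the other genes passed (2.19%), against 1.96% of the 115403 events of all genes. A 91-base core exon of Synpo had a Psi of 17.0% in Ag and 85.6% in Ag+Costim. Synpo had 369 to 875 transcript counts in the Ag libraries and as few as 89 in Ag+Costim, so that the Ag+Costim value rests on little coverage. In Cotl1 a tandem 3' end 336 bases before the annotated end (chr8:119809558-119810049, minus strand) had 30.5% in Ag and 4.87% in Ag+Costim, and the annotated end had 69.2% and 94.2%. The Cotl1 messages of Ag thus used the shorter 3' end more often, within this pair of pooled values. In Gm14085, 11 of 16 events listed passed, all of them core exons, at 99.4% to 99.6% in Ag and 88.8% to 92.8% in Ag+Costim, and the relative Slc28a2 noted above shares much of their sequence.

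Members of known programs stood beside these genes. The lists were gathered with earlier results of these data known, and the counts leave out the 25 genes. Of 17 other follicular helper genes tested, 11 were called higher and 2 lower in Ag against Naive, and with costimulation added to antigen 10 were called lower and 4 higher. Over all genes tested, 24.2% were called higher and 22.5% lower in Ag against Naive, and 26.5% lower and 26.6% higher with costimulation added. Slamf6, a surface receptor of the SLAM family, had 323 ± 2.80 CPM in Naive, 1190 ± 144 CPM in Ag and 360 ± 46.8 CPM in Ag+Costim (SD). Id3, an inhibitor of E proteins, had 276 ± 37.9, 898 ± 93.1 and 179 ± 46.1 CPM. Both peaked in Ag like the 25 genes, but below 4-fold over Naive. Bcl6, the transcription factor that defines follicular helper cells, went the other way, with 9.58 ± 1.75, 1.74 ± 0.361 and 5.08 ± 1.99 CPM, and was among the 2 called lower in Ag against Naive.

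Of 29 other genes of tolerance and hypofunction tested, 15 were called higher and 4 lower in Ag against Naive, and 12 higher and 13 lower with costimulation added. The list therefore split. Egr2, a receptor-induced zinc finger factor, had 13.8 ± 0.524, 32.0 ± 3.67 and 4.54 ± 1.92 CPM in Naive, Ag and Ag+Costim, whereas Havcr2, which encodes the inhibitory receptor TIM-3, had 0.376 ± 0.337, 3.79 ± 0.957 and 63.9 ± 11.5 CPM. Of 34 other negative regulators of receptor signalling, 8 were called higher and 11 lower in Ag against Naive, and 12 higher and 9 lower with costimulation added, shares near the background. Of 24 other effector genes, 12 were higher and 1 lower by that test in Ag against Naive, and 14 higher and 3 lower with costimulation added. The 3 lower were the cytokines Ifng and Tnf and the chemokine Ccl3.

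The 25 genes were also compared in what the choice did not use. On chromosome 2 lie 7 of them (Dusp2, Gm14085, Capn3, Angptl2, Armc3, Crls1 and Ccdc141), which holds 8.07% of all protein-coding genes tested. Their median exon length was 2830 bases, against 4280 bases for protein-coding genes tested. Another annotated gene overlaps 13 of them, 4 of them on the same strand. The share over all genes was not computed for overlap, so no trait is read from these counts. Promoter windows of RefSeq (GRCm38.p6, 250 bases before to 50 bases after the start) were found for 16 of the 25.

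The windows were searched on both strands for the letters of factors known to answer T cell receptor signals, and for 2 common promoter motifs, beside all 27025 promoters of that table. The GC box can overlap the EGR core. The AP-1 letters TGANTCA were in none of the 16 and in 7.93% of all, and the NR4A letters AAGGTCA in none and in 4.66%. The NFAT core TTTTCC was in 4 of 16 (25%, against 23.6%), in Ptger2, Slc9b2, Armc3 and Ccdc141, and the EGR core GTGGGCG in 1 (6.25%, against 8.04%), in Dcxr. The GC box GGGCGG was in 9 of 16 (56.2%, against 35.9%) and the E-box CACGTG in 2 (12.5%, against 7.24%). A pair of windows is printed for the contrast between them, the one of Dusp2 (chr2:127335909-127336208, plus strand), whose capitals mark 3 GC boxes and an E-box, and the one of Ptger2 (chr14:44987861-44988160, plus strand), whose capitals mark its only match, the NFAT core.
Dusp2: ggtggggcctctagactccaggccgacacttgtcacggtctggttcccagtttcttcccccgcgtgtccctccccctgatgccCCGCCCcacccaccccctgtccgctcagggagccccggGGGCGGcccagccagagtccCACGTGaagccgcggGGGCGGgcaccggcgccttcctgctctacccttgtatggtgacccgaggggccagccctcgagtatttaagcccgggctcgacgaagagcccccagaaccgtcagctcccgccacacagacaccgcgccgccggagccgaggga
Ptger2: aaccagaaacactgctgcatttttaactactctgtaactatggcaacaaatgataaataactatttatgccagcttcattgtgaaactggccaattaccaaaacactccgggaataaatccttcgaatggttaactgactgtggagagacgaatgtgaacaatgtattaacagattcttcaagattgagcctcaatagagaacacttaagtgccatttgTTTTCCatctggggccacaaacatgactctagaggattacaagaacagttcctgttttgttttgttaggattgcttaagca
A match is a description of letters in the window and not a site shown to be bound.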

How the data were processed

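RNA from sorted OT-I CD8+ T cells was sequenced in 12 libraries (SMART-Seq v4 and Nextera XT, single reads of 100 bases), grouped by their labels as Naive, Ag and Ag+Costim. Per the labels and the methods, alignment to mm10 was done by the authors with HISAT2 2.1.0 and SAMtools 1.9, followed by StringTie 2.1.0. The deposited estimated counts, per gene and per transcript, are whole numbers that StringTie derives from coverage and are not normalized, so that 1 count is not 1 read. The deposited FPKM values are StringTie's per transcript and were summed here by gene name. Psi fractions were computed by the authors with Whippet, 1 per group, and the deposited scores beside them are the Psi difference, its probability and the entropy. The deposited sheet of the sequencing core lists a read count per library and 2 percent columns, for alignment and complexity, without saying how these are defined. Strand use in the counting is likewise not given.

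Of 81881 entries of the gene table, 26345 carry no identifier and were left out of the tests. They hold 0.0508% to 0.121% of a library's counts. The other 55536 all matched GENCODE vM21, whose coordinates (mm10) are used. CPM is the count over the full column sum. All 12 libraries entered 1 model with a term for each group in edgeR 4.0.16 in R 4.3.3 (TMM scaling, filterByExpr, robust quasi-likelihood test, two-sided, Benjamini-Hochberg over 18817 genes, called at an adjusted p below 0.05). These steps were tested on simulated data. A gene with no count in Naive was set at a floor of 3 counts per library (0.0609 to 0.125 CPM), which covers counting error only, and its fold is a lower bound.

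The 25 genes, the limits and the gene lists were chosen with earlier results of these data known. By the rule for named genes, all 25 and the 3 genes nearest to the limits on either side are named. Genes named from the lists, the readthrough locus, the grouping of Ag libraries, the transcript shares plotted and Slc28a2 were picked after values had been seen. FPKM, Psi and promoter entries go by name and could not be assigned to the readthrough model. Alternatives were other scalings, DESeq2 1.42.0, no low-count filter, 2 groups alone, replicate block, limma 3.58.1 on log2(FPKM + 1) for genes with at least 1 FPKM in 2 libraries, an exon length correction, other limits, and each library left out. Python 3.11.15 with numpy 2.4.6, pandas 2.3.3 and matplotlib 3.10.9 was used.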

Additional observations from a re-analysis of the deposited data

Results flagged for a closer look

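A pair of values stood apart from the rest of their group of 5. The readthrough Myl12b model had 90 CPM in Ag+Costim 1 and 0 in the other 4 libraries of that group, so that the gap spanned the whole range. Slc9b2 had 3.55 CPM in Ag+Costim 1, against 1.93 CPM in the next library, a gap of 0.725 of the range. The gap had to exceed 0.71 of the range (Dixon's 95% value for 5 libraries), and 2 of 50 groups examined did so. Chance flags about 1 in 20.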

How the results depend on the processing

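Of 498 values of single genes for Ag+Costim against Naive under other settings, 464 kept their direction and their side of the threshold, 16 lost the call, 7 gained one and 11 changed direction, and 11 genes kept both throughout. The values that changed direction were never past the threshold: Dapk3 (-0.06), Cotl1 (-0.02) and Ccdc28b (-0.02) under upper-quartile scaling, which moved the median of all genes from -0.02 to -0.18, Dapk3 (-0.30), Cotl1 (-0.09) and Ccdc28b (-0.08) with limma on log2(FPKM + 1), and single libraries left out, over which Dapk3 ran from -0.06 (without Naive 2; -0.05 without Ag+Costim 1) to 0.26, Ccdc28b from -0.09 (without Naive 2) to 0.38 and Dusp2 from -0.37 to 0.02 (without Ag+Costim 4). With limma on log2(FPKM + 1), where the pseudocount shrinks low genes, 6 genes were called higher and the median was 0.37. Over the fits that leave out 1 library, 8 to 13 genes were called higher, 2 to 2 lower, and the median was 0.72 to 1.64, the highest without Naive 2. The other scalings, the 2 groups alone and the exon length correction called 12 higher, no low-count filter 11 (Spp1 lost at an adjusted p of 0.0631), and DESeq2 14, adding Igfbp7 and the readthrough model.

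The labels number the replicates, but same-numbered Ag and Ag+Costim libraries deviated together only weakly (correlations across genes 0.0159 to 0.0951), so that the numbers were not taken as pairs. With the replicate number as a block, 15 genes were called higher and 2 lower, with a median of 1.28. The block added Igfbp7 (5.42), Crls1 (1.10) and Dapk3 (0.44), and Dusp2 stood at 0.18.

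The number of genes that met the limits was 20 to 31 over the 12 leave-outs, with 20 without Ag 2, which lost Crls1, Igfbp7, Nt5e, Snx20 and Synpo. It was 51 at 3-fold and 7 at 6-fold, 7 when the lowest Ag library had to reach 4 times the highest of each other group, and 57 on FPKM with an Ag mean of at least 1, which kept all 24 genes that could be assigned by name. With TMM library sizes it was 25, with Xcl1 lost. Depth limits the lowest genes: in Naive, 3 counts are 0.069 and 0.0709 CPM.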

Other observations

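Among genes that met the same 3 limits but are not protein coding, Mir155hg, the host transcript of the microRNA miR-155 of activated lymphocytes, had a mean of 0.517 CPM in Naive, 16.0 CPM in Ag and 3.93 CPM in Ag+Costim. The transcript A430093F15Rik was the most abundant of these, at 23.8, 96.5 and 20.8 CPM, and Gm11579 had 1.26, 36.4 and 3.00 CPM. In all, 7 such genes and 4 immunoglobulin variable genes met the limits, among them Igkv12-89 at 0, 29.4 and 0.959 CPM. These values are given as a description, since the limits used both contrasts with Ag.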
